A study of Mus musculus with 15 samples.

Results

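The 7 genes described here encode transcription factors of the myeloid lineage, the branch of blood cells to which macrophages and microglia belong: Spi1, Fli1, Cebpa, Cebpb, Maf, Runx1 and Mef2a. They were chosen by symbol, all 7 were found, and they make up 7 of the 11201 genes in the table. Messenger RNA was sequenced from ESdM, microglia grown in culture from the C57BL/6-ATCC line of mouse embryonic stem cells, in a medium with N2 supplement. The cells of 6 libraries were left untreated, and 3 libraries each came from cells given 1 of 3 stimuli for 24 h. The first stimulus was lipopolysaccharide (LPS, a component of bacterial cell walls) at 500 ng/ml together with interferon gamma (IFNg) at 20 ng/ml. Transforming growth factor beta (TGFb) was used at 50 ng/ml and interleukin 4 (IL4) at 100 U/ml. All groups share the same stem cell line, which limits them to 1 genetic background, and the labels leave unsaid whether a group's libraries are separate cultures. The p-values therefore cover only the spread among these libraries, part of which may be technical.

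PU.1, the protein of Spi1, is a DNA-binding factor of the ETS family that opens and maintains the enhancers of macrophages and microglia, and these cells do not form without it. The factors encoded by the other genes bind many of the same enhancers: C/EBP alpha and C/EBP beta early in myeloid commitment and in activation, RUNX1 in the blood progenitors from which microglia arise, and c-Maf and MEF2A in mature cells of tissues. FLI1 is a second ETS factor, best known from blood progenitors, platelets and blood vessels.

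Each value is a read count divided by 1 factor per library, in normalized reads, so that libraries can be compared for 1 gene. Over the 11201 genes of the table, libraries held between 2682564 and 18676181 reads, with untreated replicates 4 and 1 and TGFb replicate 2 the shallowest. Reads for a member in 1 library ran from 30 for Maf to 3923 for Spi1, and no member value lay at the table's lowest possible value of 1. One library, LPS+IFNg replicate 3, stood apart from its group. It differed from replicates 1 and 2 by a root mean square of 0.47 and 0.49 on the log2 scale over all genes. The difference between those 2 was 0.25. Fold changes and ratios of the members with LPS+IFNg are therefore also given without replicate 3. Levels per kilobase and shares of a family are not. Csf1r (2790 ± 140) and Cd68 (7854 ± 358; SD, n = 6), general markers of macrophages, were high in untreated cells, but Aif1 (24.8 ± 7.78) and Mertk (143 ± 24.2) were much lower. Markers that set microglia apart from other macrophages were near the lowest value there. Tmem119 was at 7.62 ± 3.42, Cx3cr1 at 2.60 ± 2.28, Gpr34 at 9.01 ± 3.66 and Olfml3 at 1.01 ± 0.032. P2ry12, Fcrls and C1qa were looked up by symbol and were not among the 11201 genes. With TGFb Tmem119 was at 82.3, Cx3cr1 at 39.5 and Olfml3 at 239. Gpr34 was not called, at 13.1 (log2 fold change 0.52, limma adjusted p = 0.194). The part of these marker changes in the results for the members was not tested. The summed values of the 15 measured markers of microglia and macrophages (of 19 listed) were 23557 to 25312 in untreated libraries, 25800 to 29702 with LPS+IFNg, 28881 to 29594 with IL4 and 33139 to 34886 with TGFb. In these bulk libraries fewer cells of a type and less RNA per cell cannot be told apart.

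With LPS+IFNg all 7 members passed the test against untreated cells, 5 of them lower (Spi1, Fli1, Cebpa, Maf and Runx1) and 2 higher (Cebpb and Mef2a). With TGFb 6 passed, 4 higher (Cebpa, Cebpb, Runx1 and Mef2a) and 2 lower (Maf and Fli1). With IL4 only Runx1 passed, as higher. The test was limma on log2(value + 1) over all 15 libraries, with Benjamini-Hochberg adjustment over the 11138 genes tested and a threshold of 0.05. Against untreated it called 58.9% of all genes tested with LPS+IFNg, 17.2% with IL4 and 47.5% with TGFb, so a call was common among all genes for LPS+IFNg and TGFb. By direction, 29.5% of genes were called higher and 29.4% lower with LPS+IFNg, 24.1% higher and 23.4% lower with TGFb, and 9.89% higher and 7.33% lower with IL4. The median log2 fold change of the members was -0.49, 0.07 and 0.46 for LPS+IFNg, IL4 and TGFb, and that of all genes tested was 0.0039, 0.0011 and 0.014. The libraries of stimulated and untreated cells did not overlap for 7 members with LPS+IFNg (50.1% of all genes tested), 1 with IL4 (23%) and 5 with TGFb (46.4%). All 3 comparisons share the untreated libraries. With libraries rescaled to the same total, the share of calls that were higher went from 50% to 35.5% for LPS+IFNg, from 57.4% to 33.9% for IL4 and from 50.8% to 37.8% for TGFb, and among the called members only Mef2a with LPS+IFNg then missed the threshold.

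**Figure D1:**
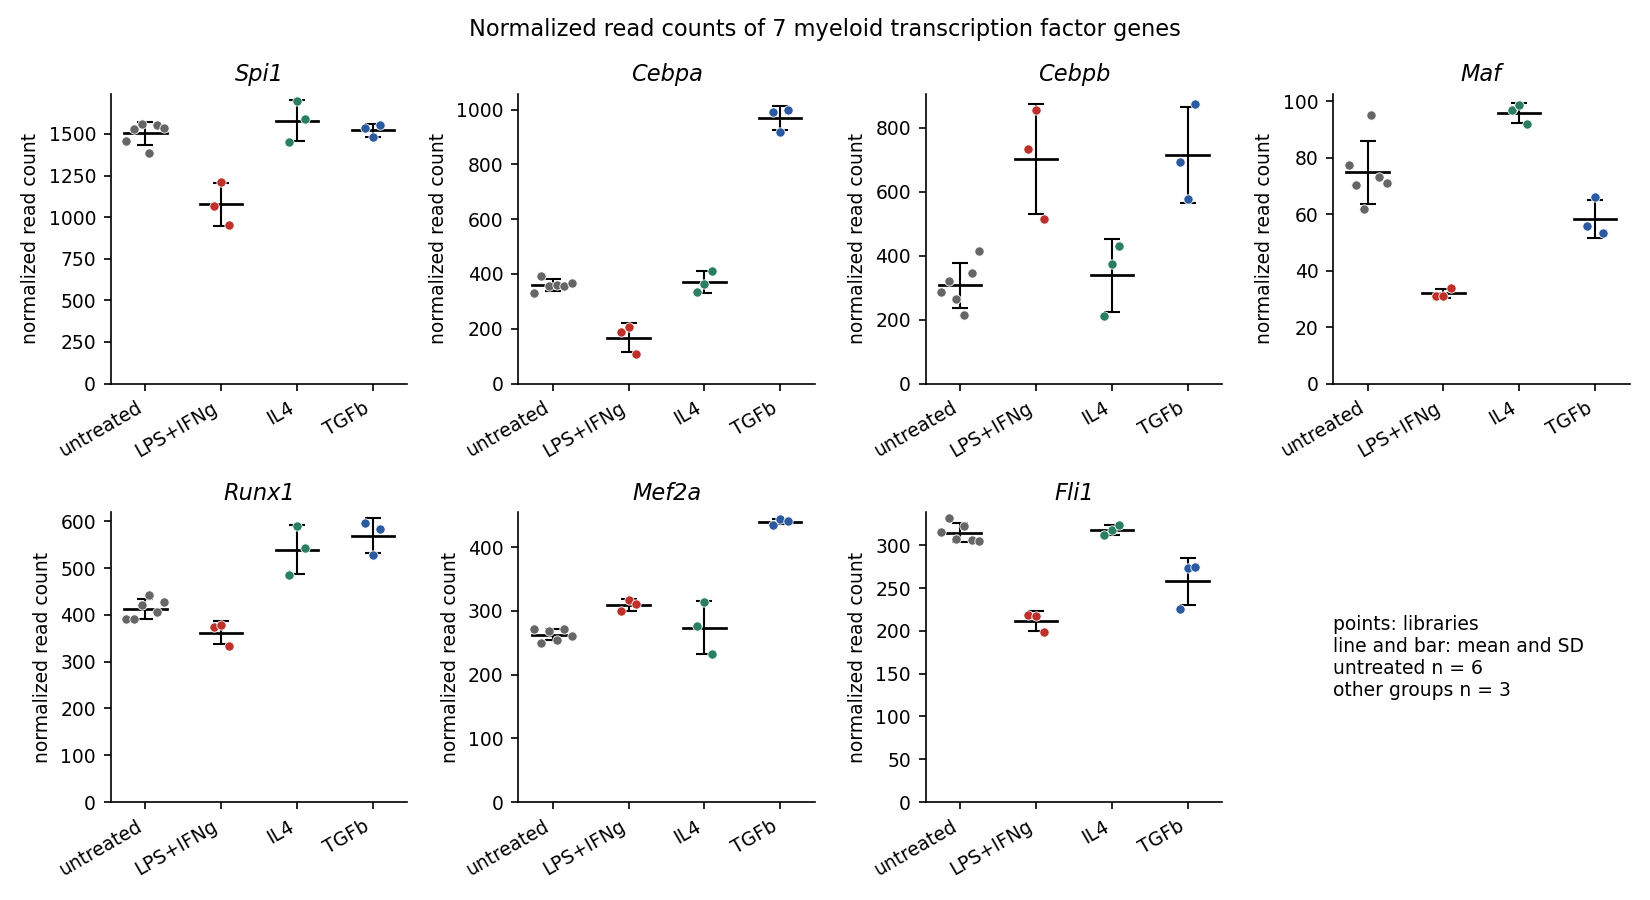
Value of each member in each of the 15 libraries (vertical axis from 0, normalized reads), by stimulation group. Points are libraries, and lines with bars are the mean and SD of a group. Cebpa in the TGFb libraries (920 to 997) lies above every other library, and Maf in the LPS+IFNg libraries (30.9 to 33.9) lies below every other library.

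Spi1 (GRCm38 chromosome 2, 91082390 to 91115756, plus strand) had the highest level of the set. Its value ran from 1387 to 1561 in the 6 untreated libraries, with a median of 1531. It was 1067, 1210 and 952 in LPS+IFNg replicates 1 to 3. All 3 LPS+IFNg libraries lay below every untreated library, and replicate 3 was the lowest. Spi1 fell 1.40-fold, with a log2 fold change of -0.49 (SE 0.07) and an adjusted p of 3.48e-06 in limma. Without LPS+IFNg replicate 3 the log2 fold change was -0.40, with an adjusted p of 4.1e-06 in limma.

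Under the other two stimuli no change of Spi1 was detected. The IL4 libraries gave 1452, 1700 and 1590 and the TGFb libraries 1534, 1479 and 1555, and both sets overlapped the untreated range. The log2 fold change was 0.07 with IL4 (95% interval -0.07 to 0.21; limma, adjusted p = 0.5263) and 0.02 with TGFb (-0.12 to 0.16; adjusted p = 0.833). In the same TGFb libraries Cebpa and Cebpb moved by more than 1 on the log2 scale.

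Fli1, the other ETS factor of the set (chromosome 9, 32422204 to 32542861, minus strand), fell with LPS+IFNg and with TGFb. It ran from 305 to 332 in untreated libraries, with a median of 311, and was 219, 218 and 199 with LPS+IFNg. The TGFb libraries gave 226, 273 and 275, with replicate 1 the lowest. Neither stimulus overlapped the untreated range.

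The fall of Fli1 was 1.49-fold with LPS+IFNg (log2 fold change -0.57, SE 0.07, limma adjusted p = 1.55e-06) and 1.22-fold with TGFb (-0.29, SE 0.07, adjusted p = 0.00254). With IL4 the 3 values of Fli1 (312, 318 and 323) lay inside the untreated range, with a log2 fold change of 0.01 (95% interval -0.14 to 0.16) and an adjusted p of 0.929 in limma. Without LPS+IFNg replicate 3 the log2 fold change for LPS+IFNg was -0.53.

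The log2 ratio of Spi1 to Fli1 inside 1 library does not depend on how libraries are scaled. It was 2.25 ± 0.10 (SD, n = 6) in untreated cells, 2.34 with LPS+IFNg and 2.31 with IL4. It was 2.56 ± 0.17 (n = 3) with TGFb, and each of these 3 libraries lay above all 6 untreated ones. An exact two-sided permutation test of the TGFb difference of 0.31 gave p = 0.0238, the smallest that 3 libraries against 6 can give, and 0.0325 after adjustment over the 15 ratio tests made. For LPS+IFNg, where both genes fell, the difference was 0.08 (exact permutation test, adjusted p = 0.357; 0.12 without replicate 3), and for IL4 it was 0.06 (adjusted p = 0.510).

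Cebpa encodes C/EBP alpha, which directs progenitors into the myeloid lineage and restrains their division, and Cebpb encodes C/EBP beta, which drives inflammatory and emergency programmes in macrophages. Cebpa lies on chromosome 7 (GRCm38, 35119293 to 35121928, plus strand) and Cebpb on chromosome 2 (167688915 to 167690418, plus strand) with a single exon. Because the pair shared 1 response and differed in the other, the 250 bases before the RefSeq start of each are shown (GRCm38.p6), read 5′ to 3′ on the gene's strand.
Cebpa promoter, chr7:35119043-35119292, plus strand: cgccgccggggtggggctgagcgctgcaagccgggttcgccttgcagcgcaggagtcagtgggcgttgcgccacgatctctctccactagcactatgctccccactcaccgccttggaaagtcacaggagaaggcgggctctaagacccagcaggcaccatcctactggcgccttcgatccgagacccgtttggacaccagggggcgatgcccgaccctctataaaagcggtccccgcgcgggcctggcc
Cebpb promoter, chr2:167688665-167688914, plus strand: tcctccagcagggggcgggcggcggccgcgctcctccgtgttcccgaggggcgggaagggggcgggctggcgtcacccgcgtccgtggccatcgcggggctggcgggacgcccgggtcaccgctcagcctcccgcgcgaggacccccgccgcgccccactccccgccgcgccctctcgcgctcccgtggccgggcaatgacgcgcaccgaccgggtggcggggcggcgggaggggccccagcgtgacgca
The Cebpb window is richer in G and C (81.6%) than that of Cebpa (66.4%), and both lie above the median of 52.4% over all promoters in the RefSeq table. Both strands were searched for 7 short motifs: GAGGAAG (PU.1, in 10.7% of the 32536 promoters), TTNNGNAA (C/EBP, 36.8%), TGTGGT (RUNX, 14%), TGCTGA (MAF, 16.1%), the MEF2 motif (3.22%), TGANTCA (AP-1, 6.73%) and GTCTAGAC (SMAD, 0.169%). None of these letters occurred in either window, so no base is in capitals, and nothing about binding follows from that.

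Cebpa moved in opposite directions under LPS+IFNg and TGFb. In untreated libraries it ran from 330 to 394, with a median of 358. The LPS+IFNg libraries gave 188, 206 and 107, all below the untreated range, and replicate 3 was the lowest of them. Cebpa fell 2.15-fold (log2 fold change -1.16, SE 0.14, limma adjusted p = 8.23e-07), and without replicate 3 the log2 fold change was -0.87, with a mean of 197 in place of 167.

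With TGFb the Cebpa values were 993, 920 and 997, far above every untreated library. This was a 2.69-fold rise, the largest of any member under this stimulus, with a log2 fold change of 1.43 (SE 0.14) and a limma adjusted p of 1.07e-07. With IL4 the values of 334, 363 and 412 overlapped the untreated range, and the log2 fold change was 0.03 (95% interval -0.26 to 0.32; limma, adjusted p = 0.905). Between LPS+IFNg and TGFb, Cebpa differed 5.80-fold (log2 -2.58, limma adjusted p = 6.9e-11), and without LPS+IFNg replicate 3 the log2 difference was -2.29.

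Cebpb rose under both stimuli. It was the most variable member among untreated libraries, with values from 213 to 415, a median of 303 and a coefficient of variation of 22.8%. The LPS+IFNg libraries gave 734, 855 and 515 and the TGFb libraries 692, 576 and 872. All 6 of these lay above the untreated range. The rise was 2.28-fold with LPS+IFNg (log2 fold change 1.19, SE 0.21, limma adjusted p = 0.000106) and 2.32-fold with TGFb (1.22, SE 0.21, adjusted p = 0.000122).

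Replicate 3 had the lowest Cebpb value of the LPS+IFNg libraries, and without it the log2 fold change was 1.40. A difference in Cebpb between LPS+IFNg and TGFb was not detected, with a log2 difference of -0.04, a wide 95% interval of -0.56 to 0.48 and a limma adjusted p of 0.909. With IL4 the 3 Cebpb values were spread from 212 to 431, across the whole untreated range and slightly past both ends of it. The log2 fold change was 0.11 (95% interval -0.34 to 0.56; limma, adjusted p = 0.794).

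Cebpb shares 908 bases with the span of Tmem189 on the opposite strand, and whether exons of Tmem189 lie there was not checked. Since the sources used here do not give whether reads were counted by strand, reads of the 2 genes there cannot be told apart. Tmem189 fell from 2203 ± 112 in untreated cells to 1460 ± 20.0 with LPS+IFNg (log2 fold change -0.59, limma adjusted p = 1.95e-09) and was 2204 ± 72.5 with TGFb (0.00, adjusted p = 0.982). With IL4, where Cebpb was not called, Tmem189 rose to 2520 ± 62.3 (0.20, adjusted p = 0.00517). The part of these reads in the values of Cebpb was not tested.

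**Figure D2:**
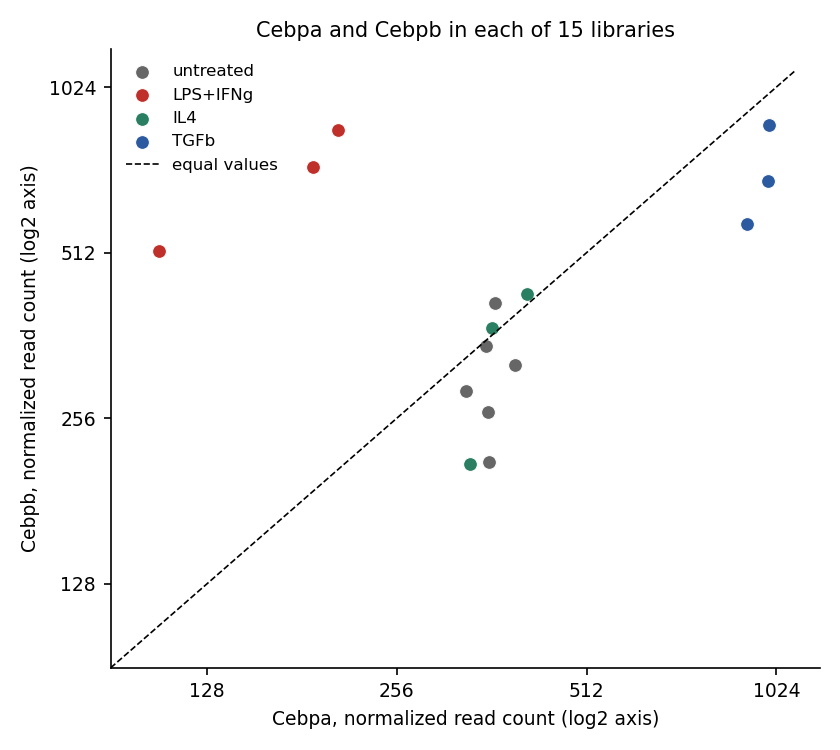
Cebpa (horizontal axis) against Cebpb (vertical axis) in each of the 15 libraries, in normalized reads on log2 axes, coloured by group, with a dashed line where both are equal. The LPS+IFNg libraries lie at the upper left, the TGFb libraries at the upper right, and the untreated and IL4 libraries together at the lower centre.

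The ratio of Cebpb to Cebpa within a library rose with LPS+IFNg, where the pair moved apart, and was not called with TGFb, where both rose. In untreated libraries it ran from 0.595 to 1.13. It was 3.88, 4.13 and 4.76 with LPS+IFNg, so that replicate 3, which had the lowest value of both genes, did not stand below the others in their ratio. With TGFb it was 0.697, 0.627 and 0.875, inside the untreated range.

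On the log2 scale the ratio rose by 2.34 with LPS+IFNg, from -0.26 ± 0.32 (SD, n = 6) to 2.08 ± 0.15 (n = 3), with an adjusted p of 0.0325 in the exact permutation test. Every LPS+IFNg library lay above the untreated range in Cebpb and below it in Cebpa. The test could therefore only give its smallest p, which adds nothing to the calls of the single genes. Without replicate 3 the rise was 2.26. The difference was -0.20 with TGFb (adjusted p = 0.467) and 0.07 with IL4 (adjusted p = 0.786), neither past the threshold.

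Among the other factors of the C/EBP family, all 4 listed were measured. With LPS+IFNg 3 of 4 rose: Ddit3, a stress-induced member that blocks DNA binding by its partners, went from 239 ± 12.7 to 1269 ± 471 (log2 fold change 2.35), Cebpg from 692 to 1349 (0.96) and Cebpd from 21.12 to 45.03 (1.06). The spread of Ddit3 in LPS+IFNg was wide, and its log2 fold change ran from 2.06, without replicate 3, to 2.49 over the other settings tried. With TGFb Ddit3 fell to 119 ± 3.87 (log2 fold change -0.99, limma adjusted p = 6.09e-06), and Cebpd was at 35.2 (0.75, adjusted p = 0.0495). With IL4 only Ddit3 passed, at 326 (0.45, adjusted p = 0.026), and that call was lost when any 1 IL4 library was left out. The TGFb count of 2 was 1 in many settings, among them without any 1 TGFb library, without untreated replicate 1, 3, 4 or 5, without LPS+IFNg replicate 1 and without IL4 replicate 2. Cebpe passed under none of the 3 stimuli in limma.

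Maf encodes c-Maf, which helps to hold macrophages in a mature, non-dividing state and takes part in IL10 production. Maf (chromosome 8, 115682942 to 115707794, minus strand) had the lowest level of the set. It ran from 61.8 to 95.3 in untreated libraries, with a median of 72.2, and was 31.0, 30.9 and 33.9 with LPS+IFNg. Every LPS+IFNg library lay at about the same level, below all others, and replicate 3 did not stand apart. Maf fell 2.34-fold (log2 fold change -1.19, SE 0.14, limma adjusted p = 4.32e-07), and without replicate 3 the log2 fold change was -1.24.

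With TGFb the Maf values of 55.7, 66.2 and 53.4 partly overlapped the untreated range. The fall was 1.28-fold (log2 fold change -0.35, SE 0.14) with a limma adjusted p of 0.0424. This call sat at the threshold and was lost in 11 of 24 other settings, namely without the 3 shallowest libraries, in a fit of the 2 groups alone, and when untreated replicate 1, 4, 5 or 6, TGFb replicate 1 or 3, or any 1 IL4 library was left out. Without TGFb replicate 1 the limma adjusted p was 0.131, and without TGFb replicate 3 it was 0.165 with a log2 fold change of -0.29. With IL4 the values were 96.8, 98.8 and 92.1. The lowest of them lay below the highest untreated library, replicate 4, which had the fewest reads, and the log2 fold change of 0.36 had a 95% interval of 0.08 to 0.65 and an adjusted p of 0.0729. Without untreated replicate 4 it was 0.44, with an adjusted p of 0.0193 in limma.

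The IL4 and LPS+IFNg libraries were furthest apart in Maf (log2 -1.56, limma adjusted p = 8.78e-08), and IL4 exceeded TGFb by 0.71 on the log2 scale (adjusted p = 0.00129).

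In the list of other MAF factors and their CNC and BACH partners, 7 of 12 were measured. With LPS+IFNg 5 rose and 1 fell (6 and 1 without LPS+IFNg replicate 3), with a median log2 fold change of 0.46. Maff, a small MAF protein without an activation domain, went from 55.3 to 247 (2.18), and Nfe2l1, a partner of the small MAF proteins, from 1615 to 3884 (1.26). With TGFb Maff rose to 144 ± 40.5 (1.37, limma adjusted p = 2.18e-05) and Nfe2l2 fell (-0.33), a call lost without the 3 shallowest libraries. With IL4 2 rose, among them Bach1 by 0.26, and the Bach1 call was lost without IL4 replicate 2 and without the 3 shallowest libraries. Without LPS+IFNg replicate 3, which enters the shared spread, 4 of the 7 were called for IL4.

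Runx1 encodes the DNA-binding RUNX1, which needs the partner subunit encoded by Cbfb to bind firmly. The gene (chromosome 16, 92601466 to 92826149, minus strand) rose with IL4 and with TGFb and was the only member called for IL4. Untreated libraries ran from 390 to 443, with a median of 414. The IL4 libraries gave 485, 590 and 544 and the TGFb libraries 597, 527 and 584, and all 6 lay above the untreated range.

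The rise of Runx1 was 1.31-fold with IL4 (log2 fold change 0.38, SE 0.07, limma adjusted p = 0.000814) and 1.38-fold with TGFb (0.46, SE 0.07, adjusted p = 2.67e-05), and both calls passed in all 24 other settings. A difference between IL4 and TGFb was not detected (log2 -0.08, 95% interval -0.25 to 0.09; limma, adjusted p = 0.463). With LPS+IFNg the values of 373, 379 and 334 lay below the untreated range. The log2 fold change was -0.19 (SE 0.07, limma adjusted p = 0.0269), and without replicate 3 it was -0.13 with an adjusted p of 0.135, so this call rested on replicate 3.

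The balance of Runx1 and Cbfb shifted to Runx1 under every stimulus. The log2 ratio of Runx1 to Cbfb was -0.57 ± 0.10 in untreated cells, -0.09 with LPS+IFNg, -0.05 with IL4 and -0.07 with TGFb, each with an adjusted p of 0.0325 in the exact permutation test. With LPS+IFNg Cbfb itself fell from 612 ± 31.5 to 392 ± 77.6 (log2 fold change -0.66, limma adjusted p = 3.91e-06). The log2 fold change of Cbfb was -0.49 without LPS+IFNg replicate 3, and the ratio rose by 0.35 in place of 0.47. With IL4 and TGFb Cbfb was not called, at log2 fold changes of -0.13 (limma adjusted p = 0.355) and -0.03 (0.797). Of the 4 measured of 6 listed RUNX relatives and partners, none was called with IL4 and only Cbfb with LPS+IFNg (2 genes without untreated replicate 4 or LPS+IFNg replicate 1), and Runx2 (354 to 465, log2 fold change 0.39) and Runx3 (596 to 765, 0.36) were called higher with TGFb.

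Mef2a encodes MEF2A, a MADS-box factor whose motif is common in microglial enhancers. The 250 bases before its RefSeq start are shown because this was the only one of the members' windows in the table that held any motif searched. The capitals mark 2 matches to the PU.1 letters GAGGAAG, at -114 to -108 and -103 to -97 from the start.
Mef2a promoter, chr7:67372859-67373108, minus strand: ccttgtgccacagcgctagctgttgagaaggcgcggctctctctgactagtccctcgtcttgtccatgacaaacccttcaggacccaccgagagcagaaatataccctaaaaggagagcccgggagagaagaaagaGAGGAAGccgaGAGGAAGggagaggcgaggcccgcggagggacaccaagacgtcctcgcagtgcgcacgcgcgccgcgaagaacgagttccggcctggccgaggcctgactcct
The table held promoters of 4 of the 7 members, Cebpa, Cebpb, Runx1 and Mef2a. A match is a description of letters, not of binding.

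Mef2a varied little in 3 of the groups, with SDs of 9.08 in untreated, 9.17 in LPS+IFNg and 4.36 in TGFb libraries, and more with IL4 (41.0). The gene (chromosome 7, 67231163 to 67372858, minus strand) ran from 250 to 272 in untreated libraries, with a median of 264. The TGFb libraries gave 435, 444 and 441, well clear of all others, and this 1.67-fold rise had a log2 fold change of 0.74 (SE 0.08) and a limma adjusted p of 2.57e-07. The LPS+IFNg libraries gave 299, 317 and 310, also above the untreated range.

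The rise with LPS+IFNg was small, 1.18-fold (log2 fold change 0.23, SE 0.08, limma adjusted p = 0.0142), and without replicate 3 it was 0.23 with an adjusted p of 0.0299. It was 0.11 with an adjusted p of 0.246 when libraries were rescaled to the same total, 0.16 (0.0634) after quantile normalization and 0.21 (0.0536) without LPS+IFNg replicate 2. With IL4 the Mef2a values of 277, 313 and 232 spread to both sides of the untreated range (log2 fold change 0.05, 95% interval -0.11 to 0.21; limma, adjusted p = 0.729). Lysmd4 lies on the opposite strand across 76168 bases of the span of Mef2a, introns included. Whether exons of the 2 genes overlap was not checked. Where they do, reads of Lysmd4 cannot be told apart from those of Mef2a without strand. Lysmd4 was at 60.9 ± 8.68 in untreated libraries and at 76.6 with TGFb (log2 fold change 0.33, limma adjusted p = 0.0665).

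Mef2c encodes a close relative that restrains microglial activation. The log2 ratio of Mef2a to Mef2c was -0.72 ± 0.16 in untreated libraries and rose by 1.84 with LPS+IFNg, 0.73 with IL4 and 0.79 with TGFb, each with an adjusted p of 0.0325 in the exact permutation test. The first of these rises was 1.81 without LPS+IFNg replicate 3. All LPS+IFNg libraries lay above the untreated range in Mef2a and below it in Mef2c. For that stimulus the test could therefore only give its smallest p. The 2 genes contributed differently: Mef2c fell from 436 ± 42.1 to 142 ± 12.3 with LPS+IFNg (log2 fold change -1.61) and to 271 ± 14.4 with IL4 (-0.68, limma adjusted p = 1.21e-05), whereas with TGFb it was 420 ± 15.98 (-0.05, adjusted p = 0.655).

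The list of other MEF2 factors and the class IIa histone deacetylases that bind and silence them had 6 of 7 genes measured. With LPS+IFNg 5 of 6 fell (4 without LPS+IFNg replicate 3), with a median log2 fold change of -0.90. Hdac9 fell 12.2-fold, from 104 ± 25.2 to 8.52 ± 2.11 (log2 fold change -3.45, limma adjusted p = 1.78e-11), and Mef2d from 3359 to 2243 (-0.59). With TGFb 4 of 6 rose, among them Hdac9 to 283 ± 21.4 (1.47) and Hdac5 from 1002 to 1435 (0.52), and Hdac7 fell from 23.3 to 10.1 (-1.15). With IL4 Mef2d rose by 0.20 and Mef2c and Hdac9 fell, the latter by 0.57 with a call lost in 12 of 24 other settings. These 3 calls became 1 without IL4 replicate 2.

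**Figure D3:**
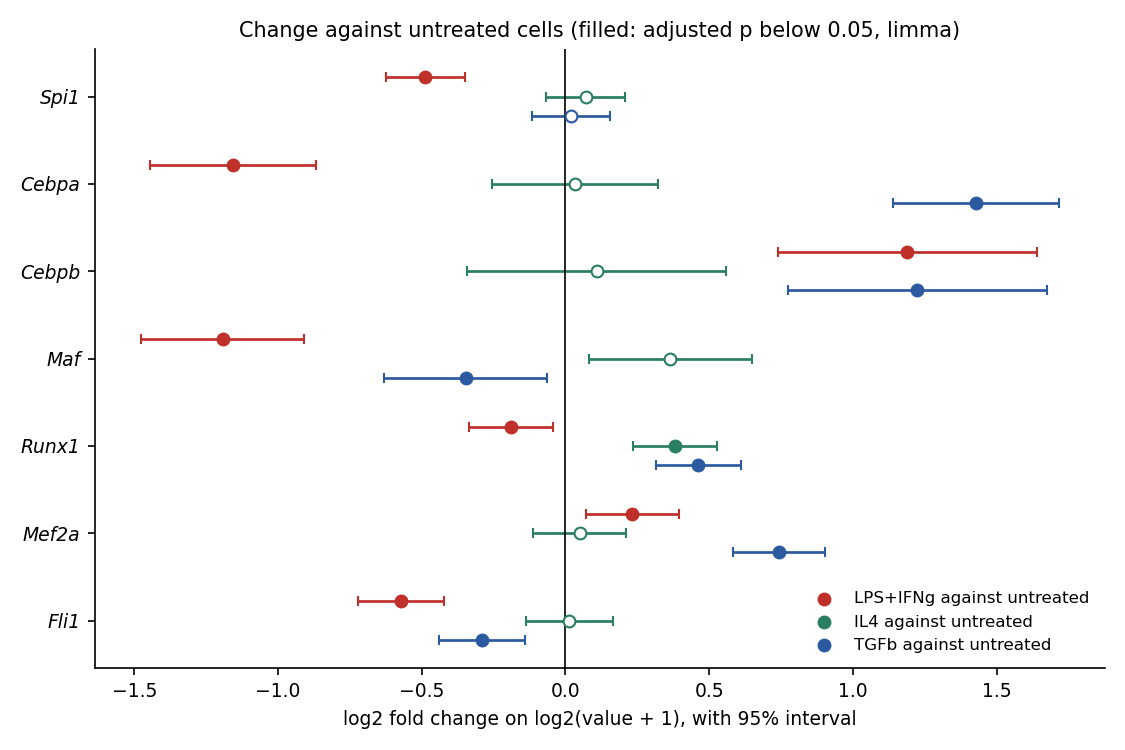
Log2 fold change of each member against untreated with its 95% interval (bars), for the 3 stimuli, from limma. Filled points passed the threshold. Cebpa lies at 1.43 with TGFb and -1.16 with LPS+IFNg, Cebpb lies near 1.2 under both, and the IL4 intervals of all members except Maf and Runx1 include 0.

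**Figure D4:**
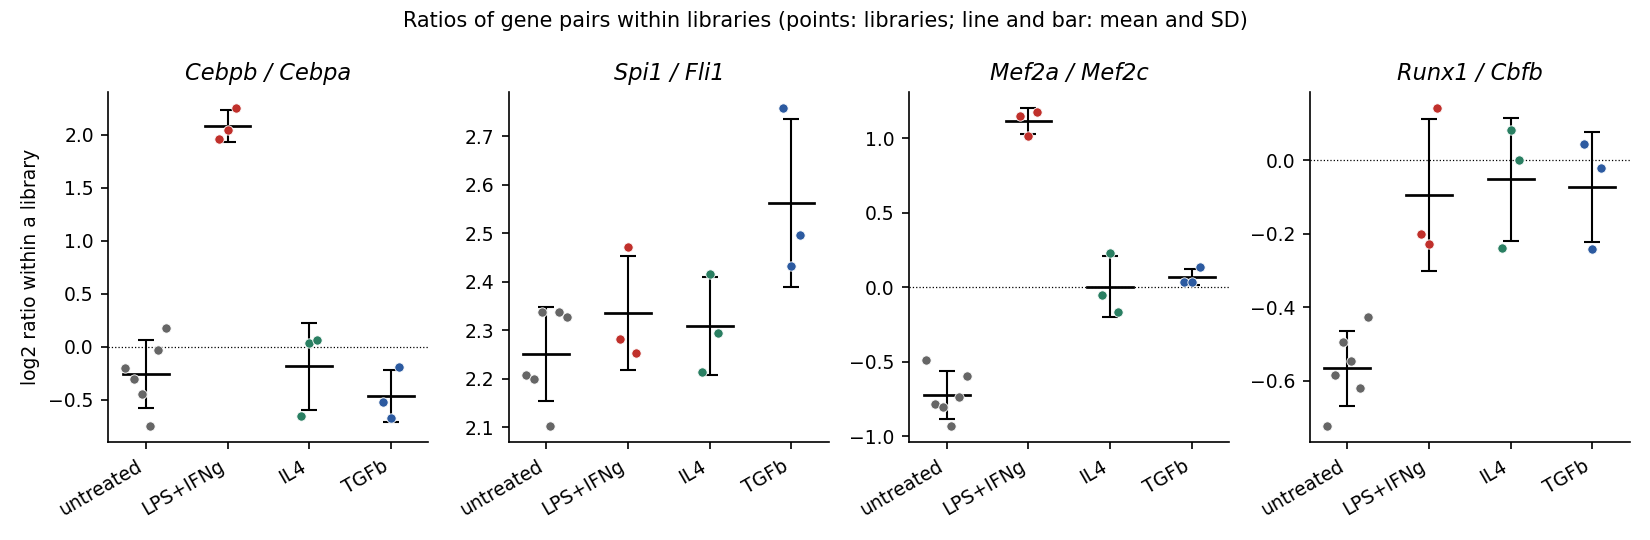
Log2 ratio of 2 genes within each library for 4 pairs, by group, with an axis of its own for each pair. Points are libraries, and lines with bars are the mean and SD. The Cebpb to Cebpa ratio is high with LPS+IFNg (mean 2.08) and has means from -0.46 to -0.18 in the other groups, and the Mef2a to Mef2c ratio is lowest in untreated libraries (mean -0.72).

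Between stimuli, 6 of 7 members differed between LPS+IFNg and IL4 (57.7% of all genes tested did), 6 of 7 between LPS+IFNg and TGFb (62.6%) and 5 of 7 between IL4 and TGFb (39.7%). LPS+IFNg libraries were below IL4 libraries in Spi1 (log2 -0.56), Fli1 (-0.59), Cebpa (-1.19), Maf and Runx1 (-0.57), and above them in Cebpb (1.08). Mef2a did not pass there, at 0.18 (limma adjusted p = 0.0849), but did without IL4 replicate 2 (0.29, adjusted p = 0.0098). Without LPS+IFNg replicate 3 the same 6 members passed, at -0.47 for Spi1, -0.54 for Fli1, -0.90 for Cebpa, -1.60 for Maf, -0.51 for Runx1 and 1.29 for Cebpb. Against TGFb, LPS+IFNg libraries were lower in every member except Cebpb, from -0.28 for Fli1 to -2.58 for Cebpa. The Fli1 difference was lost in a fit of those 2 groups alone (adjusted p = 0.0516). The same 6 members passed against TGFb without LPS+IFNg replicate 3, from -0.24 for Fli1 (limma adjusted p = 0.026) to -2.29 for Cebpa, and Cebpb was at 0.17 (adjusted p = 0.548).

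IL4 libraries were below TGFb libraries in Cebpa (-1.39), Cebpb (-1.12) and Mef2a (-0.69) and above them in Maf and Fli1 (0.31). The Fli1 difference was lost without TGFb replicate 1 (0.21, limma adjusted p = 0.0537). Spi1 and Runx1 did not pass between IL4 and TGFb.

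Divided by the length of the longest annotated transcript, the levels of different genes can be set side by side. In untreated cells the order per kilobase was Spi1 at 739, Cebpb at 204 ± 46.6, Cebpa at 137 ± 7.87, Fli1 at 94.9, Runx1 at 70.5, Mef2a at 47.5 and Maf at 11.8. Of these neighbours only Cebpb and Cebpa overlapped in their single libraries. With IL4 the order was the same, from 777 for Spi1 to 15.1 for Maf, and there Fli1 (95.7) and Runx1 (92.0) overlapped as well. With LPS+IFNg Spi1 at 529 and Cebpb at 466 led, with overlapping libraries, and Fli1, Cebpa, Runx1 and Mef2a followed at 63.8, 63.7, 61.8 and 55.8, overlapping as well. With TGFb the order was Spi1 at 749, Cebpb at 474, Cebpa at 369, Runx1 at 97.1, Mef2a at 79.5, Fli1 at 77.7 and Maf at 9.19, and only Mef2a and Fli1 overlapped. The lengths are an assumption, since the isoform in use was not measured: with the median length of the annotated transcripts the untreated level of Spi1 was 2599 and that of Runx1 was 163, above Cebpa at 151.

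Within their families the members held different shares of the summed level per kilobase. Spi1 made up 34.8% of the measured ETS family of 17 genes in untreated cells and ranked first, and Fli1 made up 4.47% and ranked 8. Cebpa and Cebpb together with 4 relatives formed the C/EBP family, in which Cebpa went from 13.9% in untreated cells to 2.81% with LPS+IFNg and 27.1% with TGFb. Cebpb held 20.5%, 20.4% and 34.5% in the same groups. Its share with LPS+IFNg matched that in untreated cells only as a mean, although its level was higher. Single LPS+IFNg libraries ran from 12.5% to 25.4%, and untreated ones from 15.7% to 25.6%. Ddit3 held 54.4% of the family with LPS+IFNg (46.2% to 68.2% in single libraries) and 9.07% with TGFb.

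Runx1 held 25.3% of the 3 RUNX factors in untreated cells, 21.2% with LPS+IFNg and 31.6% with IL4, behind Runx3 in each group. Mef2a held 6.43% of its family in untreated cells and 11.3% with LPS+IFNg, and Mef2d held most of it, from 84.1% to 88.5%. These shares are descriptions and were not tested.

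**Figure D5:**
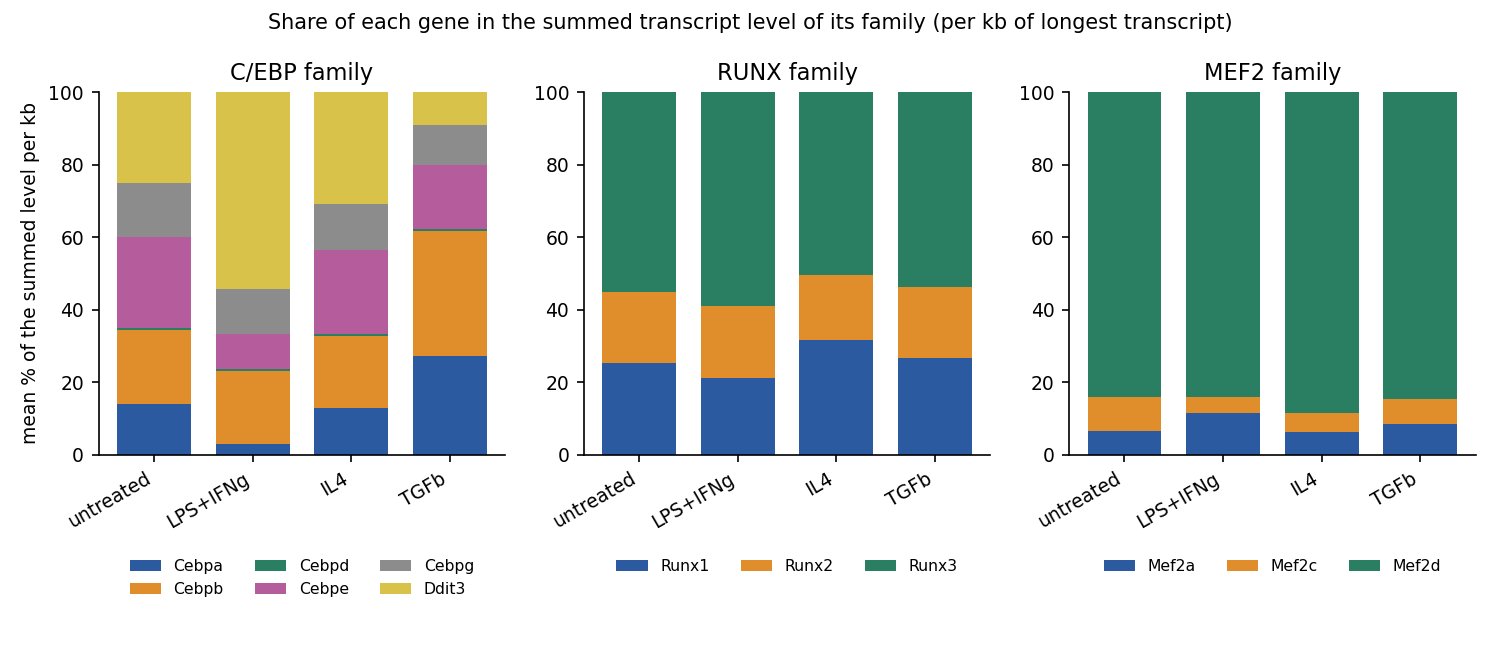
Share of the summed level per kilobase of 3 gene families held by each gene, as the mean over the libraries of a group, in percent. In the C/EBP panel Cebpa is smallest with LPS+IFNg (2.81%) and largest with TGFb (27.1%), and Ddit3 holds 54.4% with LPS+IFNg.

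The remaining genes of the pathway were taken from lists of other ETS factors, other regulators of myeloid cells, and target genes of PU.1 and the C/EBP factors. Of 15 measured ETS relatives of 24 listed, 6 were called higher and 4 lower with LPS+IFNg, with a median log2 fold change of 0.12. Without LPS+IFNg replicate 3 these counts were 5 and 2. Of all genes tested, 29.5% were called higher and 29.4% lower with LPS+IFNg. The shares were 24.1% and 23.4% with TGFb, and 9.89% and 7.33% with IL4. The counts of all gene lists, here and above, are descriptions, and nothing about a list is read from them. Ets2, a factor downstream of growth factor and Ras signalling, rose from 219 ± 20.4 to 847 ± 59.4 (1.95, limma adjusted p = 1.41e-12), while Spi1 and Fli1 fell. With TGFb 6 rose and 1 fell. The rise was largest on the log2 scale for Ets1, named after its values were seen, which stayed at a low level (2.47 to 18.4, 2.51, limma adjusted p = 1.95e-05), followed by the repressors Elk3 (341 to 780, 1.202) and Erf (370 to 663, 0.85). That count dropped from 7 to 2 calls without TGFb replicate 2, without TGFb replicate 3 or without the 3 shallowest libraries, and to 4 without TGFb replicate 1 or without untreated replicate 3, 4 or 6. With IL4 1 rose and 3 fell, with Etv4 going from 87.5 to 43.2 (-0.999), and without LPS+IFNg replicate 3 the 4 calls became 7.

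Of 22 measured regulators of 27 listed, 8 were called higher and 5 lower with LPS+IFNg (8 and 8 without LPS+IFNg replicate 3). Id3, which blocks basic helix-loop-helix factors, went from 6.10 ± 3.45 to 149 ± 27.3 (4.58, limma adjusted p = 7.92e-09), Myc from 20.9 to 114 ± 53.2 (2.34) and Lyl1 from 393 to 170 ± 76.3 (-1.30). Without LPS+IFNg replicate 3 these log2 fold changes were 4.44, 1.98 and -0.95, and all 3 passed. With TGFb 11 rose and 2 fell. Id3, named here after its values were seen, again rose most, to a low level of 43.6 (2.82, limma adjusted p = 8.25e-06). It was followed by Egr2, a zinc finger factor of macrophage differentiation, from 42.4 to 170 (2.01) and Id2 from 403 to 1115 (1.47). With IL4 5 rose and none fell, led by Klf2 from 29.4 to 66.3 (1.13) and Tfec from 116 to 208 (0.85). That count was 8 without LPS+IFNg replicate 3, with library weights and in a fit of the 2 groups alone.

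Of 31 listed PU.1 and C/EBP targets, 27 were measured. With LPS+IFNg 10 rose and 7 fell (12 and 10 without LPS+IFNg replicate 3). With IL4 6 rose and 3 fell, and with TGFb 11 rose and 7 fell. The median log2 fold changes of the 27 targets were -0.0013, 0.13 and 0.13 in that order. In percent, the share of all genes called higher and lower was 29.5 and 29.4 with LPS+IFNg, 9.89 and 7.33 with IL4, and 24.1 and 23.4 with TGFb, and nothing about the targets is read from these counts. Cybb, which encodes gp91phox of the NADPH oxidase, rose from 4329 ± 257 to 32446 ± 1664 with LPS+IFNg (2.91) and fell to 2483 ± 149 with IL4 (-0.80) and 1291 ± 34.9 with TGFb (-1.74). Emr1, which encodes the F4/80 antigen, rose under all 3 stimuli, from 2998 ± 111 to 6934 ± 590 with LPS+IFNg (1.21, limma adjusted p = 1.84e-13), 5684 ± 172 with IL4 (0.92) and 5554 ± 38.8 with TGFb (0.89). The IL4 count of 9 was 17 without LPS+IFNg replicate 3, with library weights and in a fit of the 2 groups alone.

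For each member the 2 genes with the most similar pattern were taken by Pearson's r on log2(value + 1) over the 15 libraries. The 8984 genes compared had a mean of at least 50, with predicted genes, clones, ribosomal protein and microRNA genes left out by name. These libraries fall into 4 groups, which alone can make r high, and no test was made. Spi1 was closest to Sh2b3 (r = 0.974) and Tesk1 (0.966), and Fli1 to Syn1 (0.965) and Kif3a (0.962). Cebpa was closest to Kcnh2 (0.987) and Pygo2 (0.987), and Cebpb to Lzts2 (0.956) and Trmt112 (0.939). Kcnh2, picked for this likeness, went from 177 ± 21.1 in untreated cells to 77.3 ± 22.2 with LPS+IFNg and 527 ± 17.6 with TGFb. Cebpa had the same order in these groups. With IL4 the mean of Kcnh2 (164 ± 19.6) lay below its untreated mean, and that of Cebpa (370 ± 39.5) above its own. Maf was closest to Tcp11l2 (0.972) and Napa (0.971), Runx1 to Ostm1 (0.949) and Pip5k1c (0.946), and Mef2a to Map4k3 (0.965) and Hsd3b7 (0.959). Among the members themselves r was highest for Maf and Fli1 (0.90) and was 0.15 for Cebpa and Cebpb.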

How the data were processed

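Libraries were made with the Illumina TruSeq kit from TRIZOL-extracted total RNA, per the labels' protocols. Per the submitters' processing notes, TopHat2 2.0.3, Partek 6.6, R 3.0.2, DESeq2 and the build mm10 were used; annotation, counting rule and strand use are not given in the sources used here. The authors deposited 1 table of normalized signal values. These show that read counts were divided by 1 factor per library and values below 1 set to 1. Undoing the factor returned whole reads (tolerance 0.01 reads, or the last printed digit) for at least 99.991% of the values above 1 in each library. These reads were used only for depth: 2682564 to 18676181. Depth is the sum over the genes of the table, with values of 1 counted as 0, and not all reads of a library. No value column of the 15 was left out.

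The members and gene lists were chosen with earlier results of these data known. limma 3.58.1 (R 4.3.3) was fitted with trend to log2(value + 1) over all 15 libraries for genes that reached 10 in 3 or more libraries. Fold changes on this scale understate those of low genes. Ratios of 2 genes were tested with exact permutation tests (scipy 1.17.1). List genes were named by size of change, at most 2 per direction with a mean of at least 50, and relatives of the members freely. Ets1 and Id3 with TGFb were named outside this rule. The script was tested on simulated data. Lengths and positions came from GENCODE M21 and promoters from RefSeq (GRCm38.p6). Some results for relatives of the members are not reported here.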

Additional observations from a re-analysis of the deposited data

How the results depend on the processing

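Of 42 pairs of a member and a comparison, 31 were called, and 26 of these were called in all 24 other settings. Of the 11 not called, 9 were called in none. The number of members called for IL4 against untreated was 1 and became 2, with Maf, without the 3 shallowest libraries (log2 fold change of Maf 0.47, limma adjusted p = 0.0133) and with library weights, a setting chosen after seeing the data (0.42, 0.0169). It was 1 to 2 over the fits that left out 1 library. The calls that some setting ended were Runx1 and Mef2a for LPS+IFNg, Maf for TGFb, and Fli1 for LPS+IFNg and for IL4 against TGFb. No called value changed sign, but 14 values of uncalled members did. For IL4 against untreated, rescaling to the same total gave log2 fold changes of -0.032 for Cebpa, -0.016 for Mef2a and -0.052 for Fli1, and leaving out the 3 shallowest libraries gave -0.032 for Cebpb. Leaving out 1 library gave -0.047 to 0.10 for Cebpa, -0.10 to 0.41 for Cebpb and -0.053 to 0.16 for Mef2a. For TGFb against untreated, Spi1 was at -0.057 after rescaling and between -0.0037 and 0.040 with 1 library left out. For LPS+IFNg against TGFb, Cebpb was at 0.053 with library weights and between -0.19 and 0.17 with 1 library left out. For IL4 against TGFb, Spi1 was at -0.011 after quantile normalization and between -0.0029 and 0.11 with 1 library left out. The change of the log2 ratio of Cebpb to Cebpa with IL4 was 0.07 and ran from -0.050 to 0.31 with 1 library left out. The causes were not tested. Rescaling to the same total moved the median log2 fold change of all genes by -0.125 for LPS+IFNg, and Mef2a was then at 0.11. Without IL4 replicate 2, limma called 1130 genes for IL4 against untreated over the whole table in place of 1917. The planned count tests with edgeR and DESeq2 were not run. Values set to 1 hide reads of 276 of the 11201 genes in some library, but of no member. No paired analysis was possible because replicate numbers only give the order of the libraries. Depth limits Maf most, with 30 to 182 reads per library.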

Other observations

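Genes that mark other cells the cultures could hold were few in the table and mostly low. Of 11 factors of other blood lineages 3 were measured, with summed values of 84.1 to 123 in untreated libraries, 136 to 166 with LPS+IFNg, 135 to 161 with IL4 and 129 to 141 with TGFb. Of 12 pluripotency markers only Lin28b was measured, at 19.41 to 33.95 in untreated and 35.2 to 57.6 in LPS+IFNg libraries. The 4 measured of 17 neural markers summed to 69.8 to 119 in untreated and 129 to 139 in LPS+IFNg libraries. The 1 measured of 11 fibroblast and endothelial markers reached 15.8 with LPS+IFNg and at most 2.39 in the other groups. S100a8, the 1 measured of 9 granulocyte and mast cell markers, was highest with LPS+IFNg, at 10.2 to 26.3, and with TGFb, at 17.1 to 24.4. Zbtb46, the 1 measured of 10 dendritic and lymphoid markers, ran from 3.77 to 28.8 in untreated libraries, which covers all the other groups. All of these sums were far below that of the microglia and macrophage markers. That sum covers 15 genes, general macrophage markers among them, and these cover 1 to 4 genes each without regard to length. The gap therefore does not measure amounts of cells. In untreated cells Gata3 (64.8) and Lin28b (26.6) lay above the microglia markers Tmem119 (7.62) and Gpr34 (9.01), and S100a8 (7.21) and Pecam1 (1.34) lay below both. The part of these other markers in the results for the members was not tested.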
